A study of Homo sapiens with 9 samples.

Results

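The chaperonin CCT, also called TRiC, is a barrel of paired rings in the cytosol, and each ring is built from 8 different subunits encoded by TCP1, CCT2, CCT3, CCT4, CCT5, CCT6A, CCT7 and CCT8. It encloses newly made proteins and folds them through cycles of ATP binding and hydrolysis. Actin and tubulin are its best-known clients, and many WD40-repeat proteins also pass through it. Because each ring takes one copy of every subunit, the relative levels of the subunit transcripts are of interest as well as their sum. These 8 genes were taken by symbol from the 63187 genes of a raw count table, and all 8 were found and passed the filter on low counts. All are protein coding, and they lie on separate chromosomes of GRCh38 except CCT4 and CCT7. On the plus strand are CCT2 (chr12:69585426-69601570), CCT5 (chr5:10249929-10266389), CCT6A (chr7:56051685-56063989) and CCT7 (chr2:73233420-73253021). On the minus strand are TCP1 (chr6:159778498-159789703), CCT3 (chr1:156308968-156367873), CCT4 (chr2:61868085-61888671) and CCT8 (chr21:29055805-29073797). The changes below are given relative to the total of each library, so changes in cell number or in total RNA per cell are not measured.

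The libraries came from BEAS-2B, an immortalized human bronchial epithelial cell line. Cells were left untreated (control), or were exposed for 24 h to condensed e-cigarette aerosol at a 2% dilution. The aerosol was made either from the carrier alone, a mix of propylene glycol with vegetable glycerine (PG/VG), or from a Virginia tobacco flavored liquid with nicotine at 18 mg/ml (EC). The EC and PG/VG condensates therefore differ in nicotine and flavor together, and the effects of these cannot be told apart. Each condition had 3 libraries, numbered 2, 3 and 4, and the labels give the same number as the batch. The libraries held 16168260 to 24917838 counts on genes. Of the epithelial markers, KRT8 lay between 752 and 1174 CPM (counts scaled to the TMM-adjusted library size) and KRT18 between 301 and 628 CPM in the 9 libraries, while EPCAM and CDH1 did not exceed 1.93 and 1.59 CPM. The mesenchymal marker VIM lay between 822 and 1114 CPM. The bronchial basal cell marker KRT5 and the leukocyte marker PTPRC were at 0 in most libraries and did not exceed 0.0563 and 0.0858 CPM.

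The promoters of TCP1, CCT2, CCT3 and CCT8 are shown because they hold both a CCAAT box and a GC box upstream of the start. RefSeq promoter windows on GRCh38.p14 run from 250 bases before to 50 bases after the transcript start, and 9 such windows matched 7 of the 8 genes. CCT6A had no entry in the table used. The letters CCAAT (or the reverse complement) were found in 4 of the 7 genes, TCP1, CCT2, CCT3 and CCT8. By windows this was 44.4% of 9, against 34.6% of all 35116 windows in the table. The GC box letters GGGCGG were in 66.7% of the 9 windows and 45.0% of all windows. The heat shock element core, GAANNTTC or TTCNNGAA, was in 3 of the 9 windows (33.3%) and in 13.5% of all windows. The E-box letters CACGTG were in none of the 9, against 7.26% of all windows. All letters were searched on both strands. No matches of different motifs overlapped within a window. CCT2 and CCT4 each had 2 windows, and of those of CCT2 the one with the CCAAT box is printed. The other CCT2 window and those of CCT3, CCT5 and CCT7 lie wholly inside the gene bounds given above. Whether these windows mark the main start of transcription was not tested. A match is a description of the letters only. The bases from 250 to 1 before the start are printed 5′ to 3′ on the strand of the gene, with the matched letters of these motifs in capitals.
TCP1 (minus strand, chr6:159789603-159789852): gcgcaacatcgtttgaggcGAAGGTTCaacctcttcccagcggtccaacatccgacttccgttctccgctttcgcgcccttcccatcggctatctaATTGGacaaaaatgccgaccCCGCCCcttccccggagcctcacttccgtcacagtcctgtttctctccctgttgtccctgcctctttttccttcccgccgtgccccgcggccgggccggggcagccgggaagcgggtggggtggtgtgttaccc
CCT2 (plus strand, chr12:69585209-69585458): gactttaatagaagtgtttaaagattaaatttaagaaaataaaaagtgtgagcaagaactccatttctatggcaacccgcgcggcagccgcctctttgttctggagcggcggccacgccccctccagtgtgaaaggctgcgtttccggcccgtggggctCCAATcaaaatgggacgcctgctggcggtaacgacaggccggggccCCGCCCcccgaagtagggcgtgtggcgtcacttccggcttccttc
CCT3 (minus strand, chr1:156338293-156338542): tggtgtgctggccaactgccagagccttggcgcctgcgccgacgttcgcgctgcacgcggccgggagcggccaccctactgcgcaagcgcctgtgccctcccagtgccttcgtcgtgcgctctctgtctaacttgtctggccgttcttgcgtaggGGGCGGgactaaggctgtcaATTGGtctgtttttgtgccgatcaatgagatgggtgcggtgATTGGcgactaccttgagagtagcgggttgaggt
CCT8 (minus strand, chr21:29073649-29073898): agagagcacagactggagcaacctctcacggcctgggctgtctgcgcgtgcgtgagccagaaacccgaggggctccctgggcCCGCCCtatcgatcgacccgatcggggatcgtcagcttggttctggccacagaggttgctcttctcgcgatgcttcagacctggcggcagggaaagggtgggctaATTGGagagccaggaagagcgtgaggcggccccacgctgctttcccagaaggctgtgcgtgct

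TCP1 showed a single core of the heat shock element type together with a CCAAT box and a GC box. In CCT3 there were 2 CCAAT boxes, the largest number among the 9 windows. CCT8 held a CCAAT box closer to the start than its GC box.

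The fitted log2 fold change (LFC) against the control was below 0 for all 8 CCT genes under EC and under PG/VG, against 48.5% and 47.1% of all 16030 genes tested. Its median over the family was -0.21 for EC and -0.16 for PG/VG, and over all genes tested it was 0.0078 and 0.013. Of 1428 genes with a mean CPM from that of CCT4 to that of CCT5, 981 were below 0 for EC and 774 for PG/VG. Their median LFC was -0.068 for EC and -0.016 for PG/VG. In each of the 3 batches, every one of the 8 genes was lower in EC than in the control of that batch. The same held for PG/VG, which makes 24 of 24 differences below 0 in each treatment. The 8 differences of a treatment in a batch come from the same pair of libraries and are not independent. Over all genes tested, 21.5% were lower in all 3 batches in EC and 19.9% in PG/VG. Both treatments were compared with the same 3 control libraries. The summed level of the 8 genes was 3341, 3205 and 3114 CPM in control replicates 2, 3 and 4, 2875, 2915 and 2810 CPM in the PG/VG replicates, and 3026, 2714 and 2593 CPM in the EC replicates. No treated library reached the lowest control sum.

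**Figure D1:**
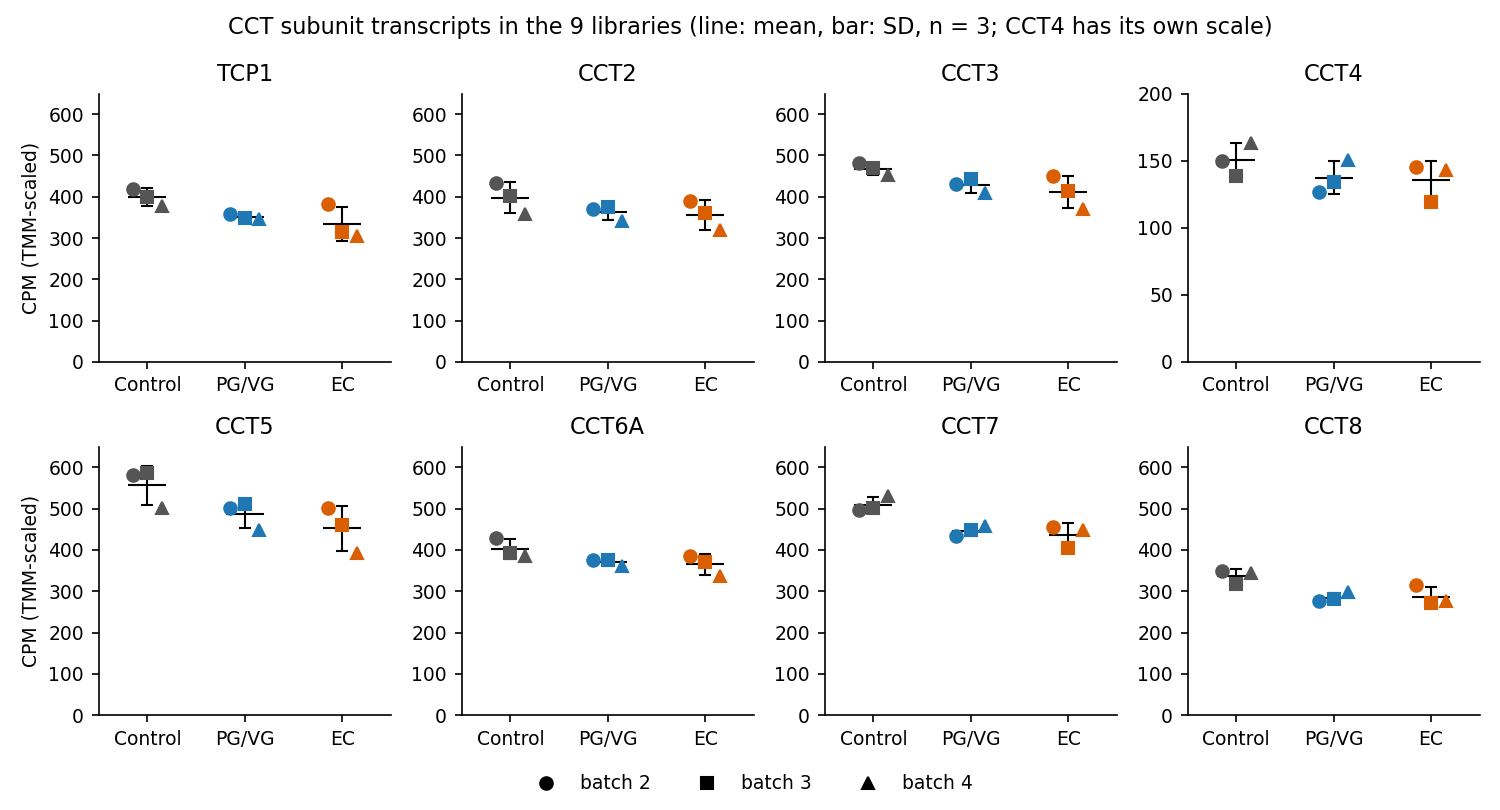
CPM of each CCT gene (vertical axis, from 0) in control, PG/VG and EC libraries, with the batch as the symbol, the mean as a line and the SD of 3 libraries as a bar; CCT4 has its own scale. The treated points lie mostly below the control points, and those of CCT3, CCT7 and CCT8 lie below all of them.

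In EC vs. control, 4 of the 8 CCT genes were differentially expressed (DEGs, adjusted p under 0.05), all downregulated, against 5.38% of all genes tested that were downregulated DEGs. An unadjusted p under 0.05 was reached by 7 of the 8, all with an LFC below 0, against 12.0% of all genes with such a p and direction. These calls and all others below are from edgeR's quasi-likelihood test with the batch in the model and Benjamini-Hochberg adjustment over all genes tested. The 4 DEGs were CCT5, TCP1, CCT7 and CCT8. Without the batch in the model none of the 8 passed in edgeR, with 4 at an unadjusted p under 0.05. Only 16 of all 16030 genes tested passed in that fit. With ComBat-Seq and DESeq2, 7 of the 8 passed, against 3099 of all 16100 genes tested.

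CCT5 encodes the epsilon subunit and had the largest fall. Its level was 581, 586 and 502 CPM in control replicates 2, 3 and 4, 503, 510.2 and 449 CPM in PG/VG, and 502, 461 and 394 CPM in EC. The highest EC library lay just below the lowest control library, whereas the PG/VG and control values overlapped. The LFC in EC vs. control was -0.30 (SE 0.066, adjusted p = 0.0037), a change of -18.9%. CCT5 was also the gene with the largest fall in EC within each of the 3 batches, with log2 differences of -0.21, -0.35 and -0.35 in batches 2, 3 and 4. When each of the 9 libraries was dropped in turn, the EC call of CCT5 was kept every time, with an adjusted p of at most 0.0359 (edgeR).

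TCP1, the alpha subunit that gave the complex its other name, was at 419.9, 399 and 377 CPM in the control, 358, 348 and 345 CPM in PG/VG, and 382, 315 and 305 CPM in EC. EC replicate 2 lay within the control range and the other EC libraries below it, while all PG/VG libraries lay below all control libraries. The LFC in EC vs. control was -0.26 (SE 0.069, adjusted p = 0.0139). The call was lost without control replicate 3, EC replicate 3 or EC replicate 4, with adjusted p values of 0.0992, 0.0884 and 0.0732 (edgeR). Of its exon length, 12.4% overlaps other annotated genes, mainly ACAT2 on the opposite strand. ACAT2 itself had an LFC of 0.11 in EC (adjusted p = 0.418), and the strand setting of the counting is not given in the sources used here.

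CCT7, the eta subunit, was at 497, 501 and 530.0 CPM in control replicates 2, 3 and 4, 434, 449 and 457 CPM in PG/VG, and 457, 404 and 448 CPM in EC. Every treated library lay below every control library. In EC vs. control the LFC was -0.22 (SE 0.067, adjusted p = 0.0284). CCT8, the theta subunit, was at 349, 318 and 345 CPM in the control, 276, 281 and 298 CPM in PG/VG, and 315, 271 and 276 CPM in EC, again without overlap between control and treated libraries. Its LFC in EC vs. control was -0.23 (SE 0.070, adjusted p = 0.029). Both calls were lost in the same 5 fits, without any one of the control libraries and without EC replicate 3 or 4. In these fits the adjusted p lay between 0.058 and 0.166 for CCT7 and between 0.0816 and 0.136 for CCT8 (edgeR), and the LFC of CCT7 was smallest without EC replicate 3 (-0.17).

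The remaining 4 genes did not pass the threshold in EC vs. control. CCT3, the gamma subunit, was at 481, 469.5 and 453 CPM in the control, 432, 443 and 408 CPM in PG/VG, and 449.8, 413 and 371 CPM in EC. Its treated libraries lay below the control libraries, and the fitted EC difference was -0.19 on the log2 scale (SE 0.067, adjusted p = 0.0628). CCT2, the beta subunit, was at 433, 401 and 358 CPM in the control, 371, 376 and 341 CPM in PG/VG, and 390.1, 359.7 and 319 CPM in EC. The ranges of CCT2 overlapped, since batch 4 was lowest in every condition, and the LFC in EC was -0.16 (SE 0.066, adjusted p = 0.114). CCT6A, the zeta subunit found in most tissues, was at 429.8, 392 and 385 CPM in the control, 376, 375 and 360.5 CPM in PG/VG, and 386, 371 and 338 CPM in EC. PG/VG libraries of CCT6A lay below the control, EC replicate 2 lay just above the lowest control library, and the LFC in EC was -0.14 (SE 0.065, adjusted p = 0.163). CCT4, the delta subunit, had the lowest counts, with 150.1, 139 and 163 CPM in the control, 126, 134 and 151 CPM in PG/VG, and 145, 119.5 and 143 CPM in EC. Its ranges overlapped in all 3 conditions, and its fitted EC difference was -0.15 on the log2 scale (SE 0.073, adjusted p = 0.191). Without EC replicate 2, CCT3 and CCT4 passed the threshold (edgeR, adjusted p = 0.0197 and 0.0414), and 6 of the 8 genes were then DEGs. In that fit 1839 of all 15854 genes tested were DEGs.

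In PG/VG vs. control only CCT8 was a DEG among the 8 genes, against 1.90% of all genes tested that were downregulated DEGs. Its LFC was -0.24 (SE 0.070, adjusted p = 0.0472). The other 7 had LFC values from -0.12 for CCT6A to -0.19 for CCT5, with adjusted p values from 0.101 to 0.318 (edgeR). Before adjustment, p was under 0.05 for 4 of the 8, all with an LFC below 0, against 9.21% of all genes tested. All PG/VG libraries lay below all control libraries in 5 genes, TCP1, CCT3, CCT6A, CCT7 and CCT8, against 6.37% of all genes tested. In EC the same count was 4, with CCT3, CCT5, CCT7 and CCT8, against 7.42%. The PG/VG call of CCT8 was lost when any of 7 libraries was dropped, with the highest adjusted p (0.35) and an LFC of -0.17 without PG/VG replicate 2, and it held without EC replicate 2 or EC replicate 4. In the fit without EC replicate 2, TCP1, CCT5 and CCT7 were DEGs as well (edgeR, adjusted p = 0.0452, 0.0366 and 0.0412). Of all 15854 genes tested, 1084 were DEGs in that fit.

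EC and PG/VG were not distinguished in any CCT gene. Of the 8 genes, 0 were DEGs in EC vs. PG/VG by edgeR, by DESeq2 with the batch in the model and by DESeq2 on ComBat-Seq counts, against 0.855% of all genes tested by edgeR. At an unadjusted p under 0.05 the count was 0 in edgeR, against 12.9% of all genes. The LFC ranged from -0.11 for CCT5 to 0.0095 for CCT8. The 95% interval of the difference ran from -0.25 to 0.024 for CCT5 and from -0.13 to 0.15 for CCT8. Only CCT5 was lower in EC than in PG/VG in all 3 batches, against 14.6% of all genes tested. In batch 2, 7 of the 8 genes were higher in EC than in PG/VG, CCT5 being the exception with -0.0024, and in batches 3 and 4 all 8 were lower. The median difference was 0.074 in batch 2, -0.12 in batch 3 and -0.10 in batch 4.

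**Figure D2:**
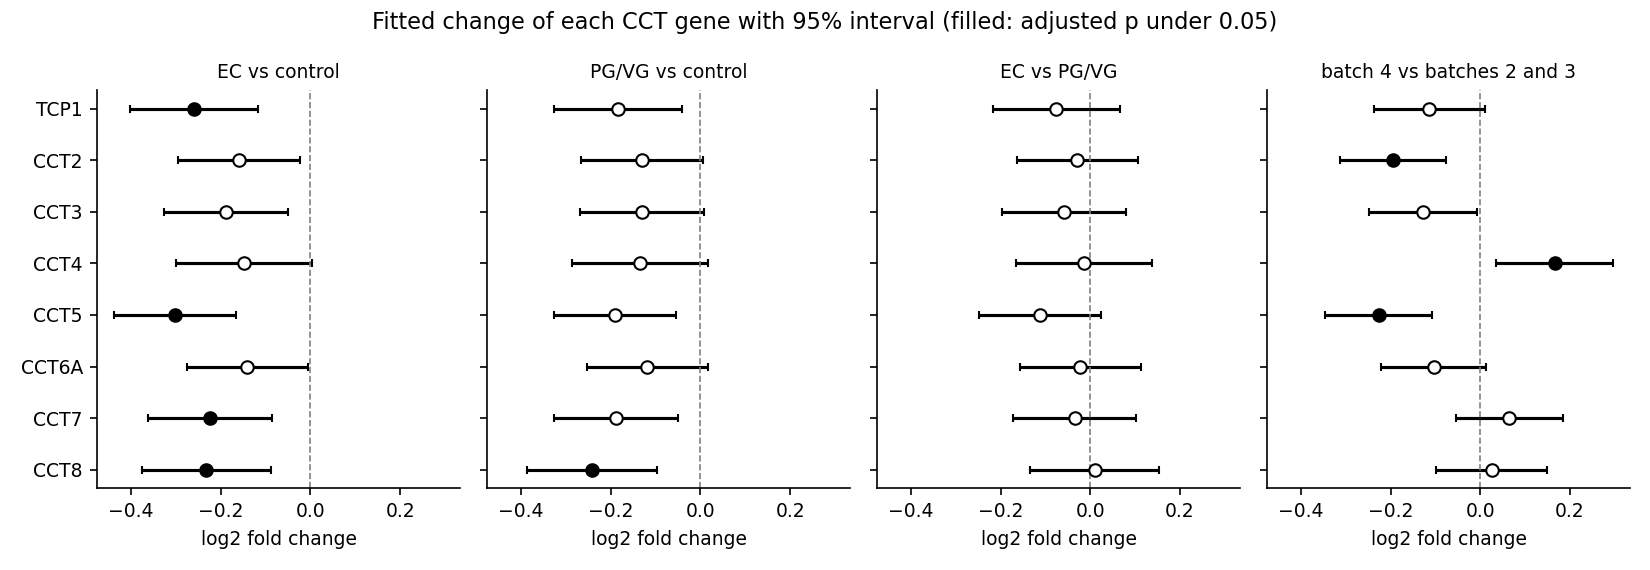
Fitted log2 fold change of each CCT gene (horizontal axis) with its 95% interval in 4 comparisons, with filled points for an adjusted p under 0.05. All 8 genes lie below 0 against the control under EC (4 filled) and under PG/VG (1 filled), none is filled in EC vs. PG/VG, and the genes lie on both sides of 0 in batch 4 vs. batches 2 and 3.

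The subunits moved by similar amounts under the treatments. Against the control, the 8 LFC values had an SD of 0.057 under EC and 0.043 under PG/VG, which is below the median SE of a single gene in this family (0.067 in each). The distance from the largest to the smallest fall was 0.16 in EC (CCT5 to CCT6A) and 0.12 in PG/VG (CCT8 to CCT6A). Over the 1428 genes with a mean CPM between those of CCT4 and CCT5, the lowest and highest of the family, the SD was 0.16 in EC and 0.14 in PG/VG. Errors of different genes may be correlated, and the SE of a single gene is not the error of a difference between genes. No test of evenness was made.

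The spread can be set beside that of other complexes with fixed lists of subunits. For the 13 genes of eIF3, the initiation factor that recruits the ribosome to mRNA, the LFC values had an SD of 0.066 under EC and 0.086 under PG/VG. The 6 prefoldin genes had 0.047 and 0.11, and among them PFDN5 had at most 3.96 CPM in the mean of a condition (PG/VG LFC 0.056, SE 0.18). The 14 genes of the 20S proteasome core had 0.29 and 0.39, and 0.12 and 0.15 without PSMA2, a gene with at most 1.39 CPM in the mean of a condition. Without PSMA6 as well, a gene with at most 5.28 CPM in the mean of a condition, the 12 genes left had 0.075 and 0.067. Both omissions were chosen after seeing the data. PSMA2 was itself a DEG under EC (LFC -1.11, adjusted p = 0.0362) and PG/VG (LFC -1.47, adjusted p = 0.0203). The counting ignored multi-mapping and multi-overlapping reads, so the low rows of PSMA2, PSMA6 and PFDN5 may hold only part of the reads. This was not tested. Of the eIF3 genes, 8 were downregulated under EC (EIF3A, EIF3B, EIF3C, EIF3D, EIF3E, EIF3F, EIF3I and EIF3L) and 3 under PG/VG (EIF3B, EIF3D and EIF3I). Over all genes tested, 5.38% were downregulated DEGs under EC and 1.90% under PG/VG.

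Within batches the 8 log2 differences also lay closer together than those of all genes tested. In EC vs. control the SD among the 8 log2 differences was 0.048, 0.094 and 0.069 in batches 2, 3 and 4, with medians of -0.14, -0.22 and -0.27. In PG/VG vs. control the SD was 0.054, 0.063 and 0.051, with medians of -0.22, -0.13 and -0.14. Over all genes tested, which include genes with low counts, the SD was 0.50, 0.47 and 0.49 for EC. For PG/VG it was 0.45, 0.42 and 0.44. In batch 3 of EC vs. control the differences of the 8 genes ran from -0.35 (CCT5) to -0.080 (CCT6A). CCT5 had the largest fall in EC in every batch, whereas the gene with the smallest fall differed, being CCT4 in batch 2, CCT6A in batch 3 and CCT2 in batch 4. In PG/VG the largest fall was that of CCT8, TCP1 and CCT7 in turn.

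**Figure D3:**
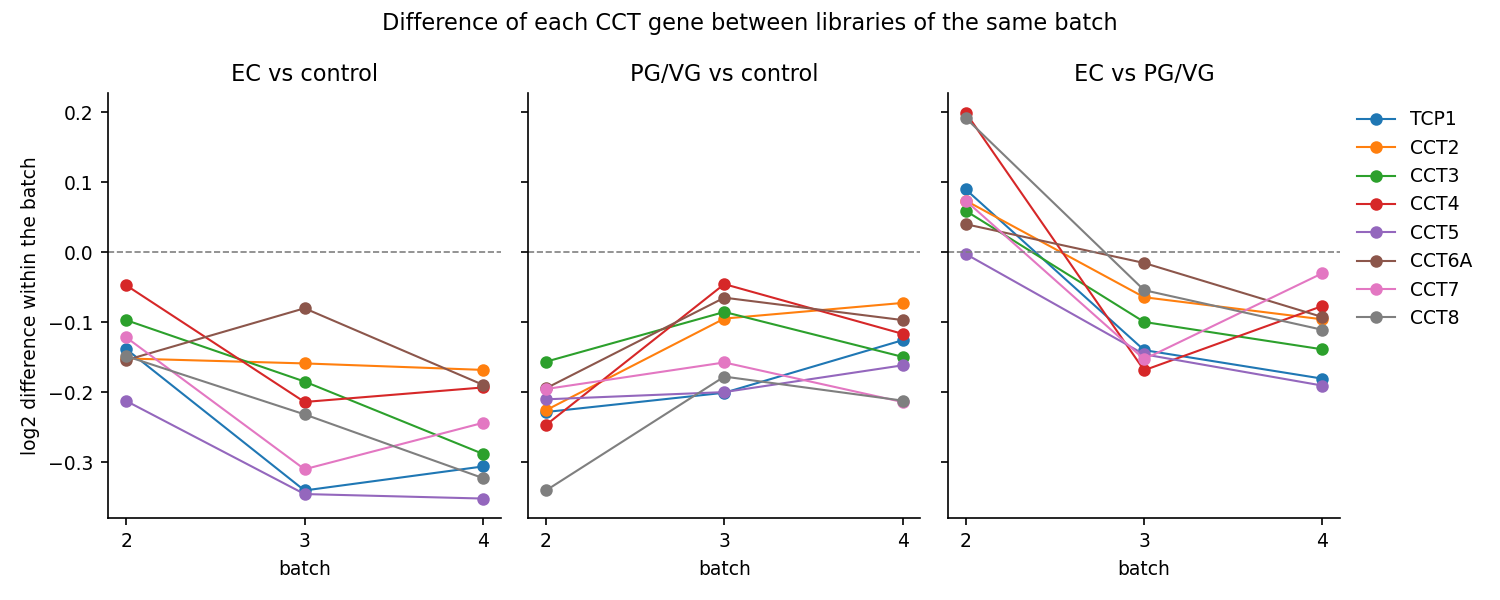
Log2 difference between libraries of the same batch (vertical axis) for each CCT gene in batches 2, 3 and 4; lines only join the points of one gene. Against the control every point lies below 0 under EC and under PG/VG, CCT5 is lowest in every batch of EC vs. control, and in EC vs. PG/VG 7 of the 8 genes lie above 0 in batch 2 and all lie below 0 in batches 3 and 4.

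Between batch 4 and the mean of batches 2 and 3, the 8 genes did not all move in one direction. In the same fit, batch 4 was compared with the mean of batches 2 and 3, and 3 of the 8 genes passed the threshold, against 40.6% of all genes tested. CCT5 (LFC -0.23, SE 0.057, adjusted p = 0.0028) and CCT2 (LFC -0.19, SE 0.057, adjusted p = 0.0088) were lower in batch 4, and CCT4 was higher (LFC 0.17, SE 0.063, adjusted p = 0.0384). The SD of the 8 LFC values was 0.14, with a median SE of 0.058. The genes in the CPM range of the family also spread more in this batch comparison than under the treatments, with an SD of 0.34. In the same batch comparison it was 0.18 for eIF3 and 0.32 for prefoldin, whose LFC ran from -0.41 (PFDN2) to 0.44 (PFDN5). For the 14 genes of the 20S proteasome the SD was 0.12, below its 0.29 under EC and 0.39 under PG/VG. Without PSMA2 and PSMA6 it was 0.12, above 0.075 under EC and 0.067 under PG/VG. CCT5 kept the call whichever library was dropped, CCT2 lost it without EC replicate 4 (edgeR, adjusted p = 0.0562), and CCT4 lost it in 6 fits, without control replicate 3 or 4, PG/VG replicate 2 or 4, or EC replicate 3 or 4 (edgeR, adjusted p between 0.0774 and 0.169). In the EC libraries, all 8 genes were lower in batch 3 and in batch 4 than in batch 2. The log2 differences nearest 0 were -0.059 (CCT6A) and -0.025 (CCT4). Between the same batches, the control and the PG/VG libraries had genes on both sides of 0. What the batches differed in is not given in the labels.

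Across the 9 libraries, the 28 pairs of CCT genes had Pearson correlations of log2 CPM from 0.026 (CCT2 with CCT4) to 0.97 (CCT3 with CCT5), with a median of 0.76. After the mean of each batch was subtracted from each gene, they lay between 0.81 (CCT4 with CCT6A) and 0.98 (TCP1 with CCT5), with a median of 0.92. These values describe 9 libraries that share depth and the 3 conditions, and no p was computed.

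Levels of different genes were compared per length, as CPM per kb of the Ensembl canonical transcript. In the control libraries CCT7 was highest, at 276 ± 9.79 CPM per kb (SD, n = 3), followed by CCT3 at 237 ± 7.15, CCT2 at 208 ± 19.7, CCT8 at 182 ± 9.23, TCP1 at 169 ± 9.21, CCT5 at 169 ± 14.3 and CCT6A at 156 ± 9.28 CPM per kb. CCT4 was lowest, at 63.4 ± 5.19 CPM per kb. The control libraries did not overlap between CCT7 and CCT3, between CCT3 and CCT2, and between CCT6A and CCT4, while the neighbours from CCT2 down to CCT6A overlapped in range. The order of means was the same in PG/VG, and in EC CCT5 and CCT6A changed places (137 ± 16.6 and 141 ± 9.52 CPM per kb). The place of CCT5 depended on the length used. Per kb of coding sequence CCT5 was highest in every condition, at 343 CPM per kb in the control against 313 for CCT7. CCT5 and CCT6A did not change places in EC with that length.

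The level of CCT4 per length was 4.35 times below that of CCT7. CCT4 was also lowest per length of the coding sequence (3.68 times below the highest, then CCT5) and per length of all annotated exons together (2.55 times below CCT7). No window of 150 bases in the canonical transcript of CCT4 was shared letter for letter with an annotated pseudogene, and the same held for the other 7 genes. Windows shared with a transcript of another gene made up 5.70% for CCT4, 13.9% for TCP1 and 50.5% for CCT5, and 0 windows for the remaining 5 genes. All of these lay in exons that overlap a gene on the opposite strand, for CCT5 the lncRNA ENSG00000271980, which had at most 0.0683 CPM in the mean of a condition. Reads over such an overlap are left out if strand was not used in the counting, so the level of CCT5 per length may be understated, and its share of the family with it. The part of this in the order of levels was not tested.

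Each subunit was also expressed as a share of the length-scaled sum of the 8 genes. CCT7 made up 18.9% ± 1.21 of the sum in the control, 18.6% ± 0.651 in PG/VG and 18.7% ± 1.47 in EC (SD, n = 3). CCT4 made up 4.35% ± 0.43, 4.45% ± 0.451 and 4.54% ± 0.495. These SDs include the differences between batches. Within batches the EC share of CCT4 was above the control share in all 3, by 0.19 ± 0.112 percentage points (SD, n = 3 batches). For CCT7 the same difference was -0.17 ± 0.671, an SD larger than the difference.

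For CCT5 the share was 11.7%, 12.3% and 10.7% in control replicates 2, 3 and 4, 11.8%, 11.7% and 10.7% in PG/VG, and 11.1%, 11.4% and 10.1% in EC. Within every batch the EC library had the lowest share of CCT5. The difference between EC and control was -0.72 ± 0.165 percentage points (SD, n = 3 batches), and between EC and PG/VG -0.53 ± 0.157. These shares use the length of the canonical transcript. With coding lengths the mean CCT5 share was 17.3% in the control, 17.0% in PG/VG and 16.3% in EC. For CCT8 the difference between PG/VG and control was -0.63 ± 0.338 percentage points, and for CCT6A that between EC and control was 0.53 ± 0.657, an SD larger than the difference. Between batch 4 and the mean of batches 2 and 3, the share of CCT7 differed by 1.86 ± 0.732 percentage points (SD, n = 3 conditions), that of CCT2 by -1.18 ± 0.324, that of CCT5 by -1.16 ± 0.0818 and that of CCT4 by 0.77 ± 0.0323. The mean share difference of batch 4 was larger in size than that of either treatment against the control in 6 genes, these 4 with CCT3 and CCT8. In the other two it was smaller than the EC difference, with -0.31 ± 0.276 against -0.39 ± 0.411 for TCP1 and -0.22 ± 0.032 against 0.53 ± 0.657 for CCT6A.

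**Figure D4:**
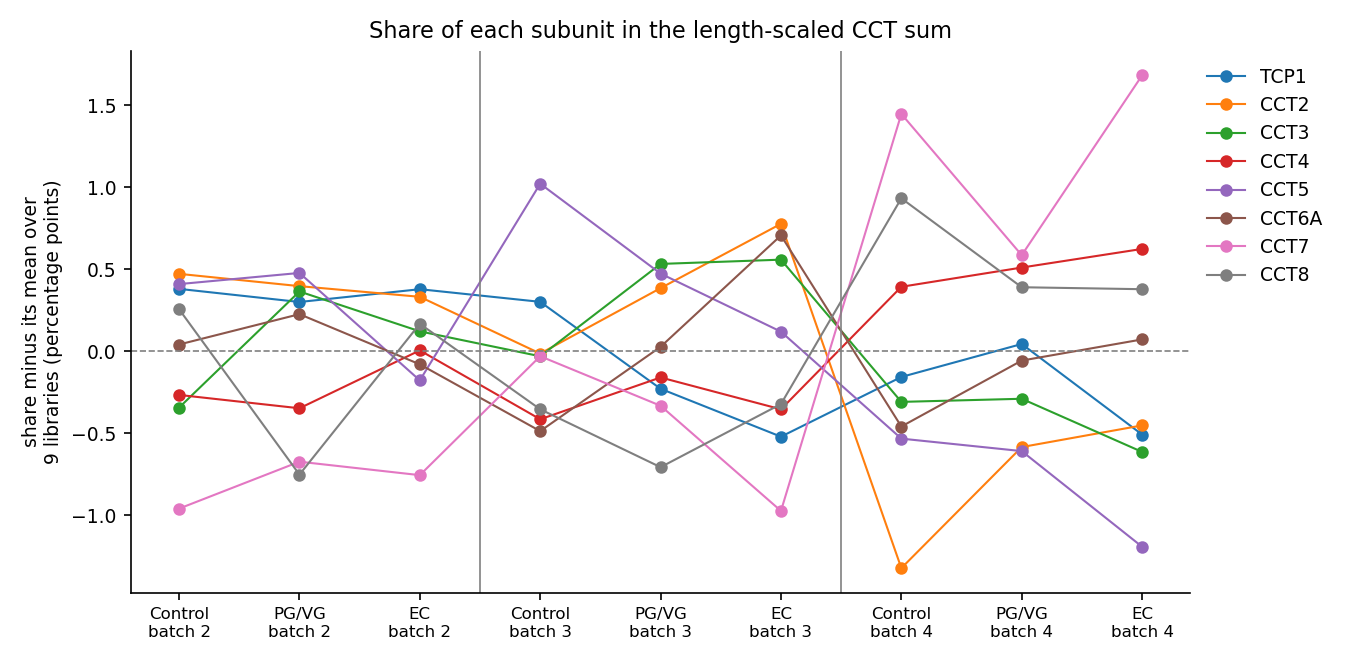
Share of each subunit in the length-scaled sum of the 8 CCT genes, minus the mean share of that subunit over the 9 libraries (vertical axis, percentage points), with libraries grouped by batch; lines only join the points of one gene. In batch 4 the points of CCT7, CCT8 and CCT4 lie above 0 and those of CCT2, CCT5 and CCT3 below it, and within each batch the EC point of CCT5 lies below its control point.

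Cofactors deliver clients to the chaperonin. Prefoldin is a hexamer that hands unfolded actin and tubulin to CCT, and none of its 6 genes (PFDN1, PFDN2, VBP1, PFDN4, PFDN5 and PFDN6) was a DEG in either treatment. Their median LFC was -0.18 in EC and -0.15 in PG/VG, with 6 and 5 of the 6 below 0. PFDN2 came nearest to the threshold in EC, with an LFC of -0.22 (SE 0.076, adjusted p = 0.0565). The 3 phosducin-like cofactors, PDCL, PDCL3 and TXNDC9, which assist CCT in folding, had 0 DEGs in both treatments and a median LFC of -0.012 in EC. Their LFC values under EC ran from -0.064 to 0.10. RUVBL1, RUVBL2 and PIH1D1, parts of the R2TP cochaperone machinery, were downregulated in EC (LFC -0.32, -0.27 and -0.31, adjusted p = 0.00318, 0.015 and 0.0173). They were 3 of the 7 genes of that list, against 5.38% of all genes tested that were downregulated DEGs. In PG/VG 0 of the 7 were DEGs (4.54% of all genes tested), and all 7 were below 0 (47.1% of all genes tested).

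Among the relatives of CCT, MKKS, a chaperonin-like protein of the Bardet-Biedl syndrome, was downregulated by both treatments (EC LFC -0.47, adjusted p = 0.00422, and PG/VG LFC -0.39, adjusted p = 0.0326). It was 1 of 4 tested genes of that list of 5, against 5.38% (EC) and 1.90% (PG/VG) of all genes tested that were downregulated DEGs. The other 3 were not DEGs. Of these, CCT6B, the testis form of the zeta subunit, had at most 0.665 CPM in the mean of a condition and an EC LFC of 1.32 (adjusted p = 0.0834). The mitochondrial chaperonin pair HSPD1 and HSPE1, which forms the separate folding chamber of the matrix, had 0 DEGs. HSPD1 had an LFC of -0.18 under EC and -0.20 under PG/VG, and HSPE1 of 0.010 and -0.27. Of 6 tubulin folding cofactors, which act on tubulin after CCT, 0 were DEGs.

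Of 29 clients tested, 6 were DEGs in EC (20.7%, against 13.5% of all genes tested) and 1 in PG/VG (3.45%, against 4.54%). Of the 11 tubulin genes, TUBA4A was upregulated in EC (LFC 0.50, adjusted p = 0.000313) and none was a DEG in PG/VG. The median LFC of the tubulin list was -0.069 in EC. Of the 5 actin and actin-related genes, ACTR3, a subunit of the Arp2/3 complex, was downregulated in EC (LFC -0.24, adjusted p = 0.0186), and ACTB and ACTG1 had LFC values of -0.20 and -0.18 that did not pass (adjusted p = 0.0684 and 0.098). Of 13 WD40 and other clients, 4 were downregulated in EC (30.8%, against 5.38% of all genes tested). They were CDC20 (LFC -0.27), the activator of the anaphase-promoting complex, the G protein subunit GNB1 (-0.22), the ribosome-bound scaffold RACK1 (-0.30) and the mitotic kinase PLK1 (-0.31), with adjusted p values from 0.00574 to 0.0263 (edgeR). RACK1 was also a DEG in PG/VG (LFC -0.25, adjusted p = 0.0407), and PLK1 differed between EC and PG/VG (LFC -0.32, adjusted p = 0.0331).

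The HSP70 and HSP90 systems also hand on or fold proteins in the cytosol. Of 12 genes, HSPA1B (LFC 0.44) and the cochaperone BAG3 (0.20) were upregulated in EC, and STIP1 (-0.24), which links HSP70 to HSP90, was downregulated, with adjusted p values from 0.00411 to 0.0464 (edgeR). Over all genes tested, 13.5% were DEGs in EC. HSPA1A had an LFC of 0.26 (adjusted p = 0.0679), and the median of the list was -0.0064. HSPA1A and HSPA1B are near-identical copies. Multi-mapping reads were ignored in the counting, so the counts of both may rest on only part of each transcript. Of 4 transcription regulators listed, only MYC was downregulated in EC (LFC -0.47, adjusted p = 9.4e-05), against 5.38% of all genes tested that were downregulated DEGs. MYC was also lower in batch 4 than in batches 2 and 3 (LFC -0.64, adjusted p = 1.9e-08 in edgeR). HSF1, the regulator of the heat shock response, had an LFC of -0.11 in EC (adjusted p = 0.335).

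**Figure D5:**
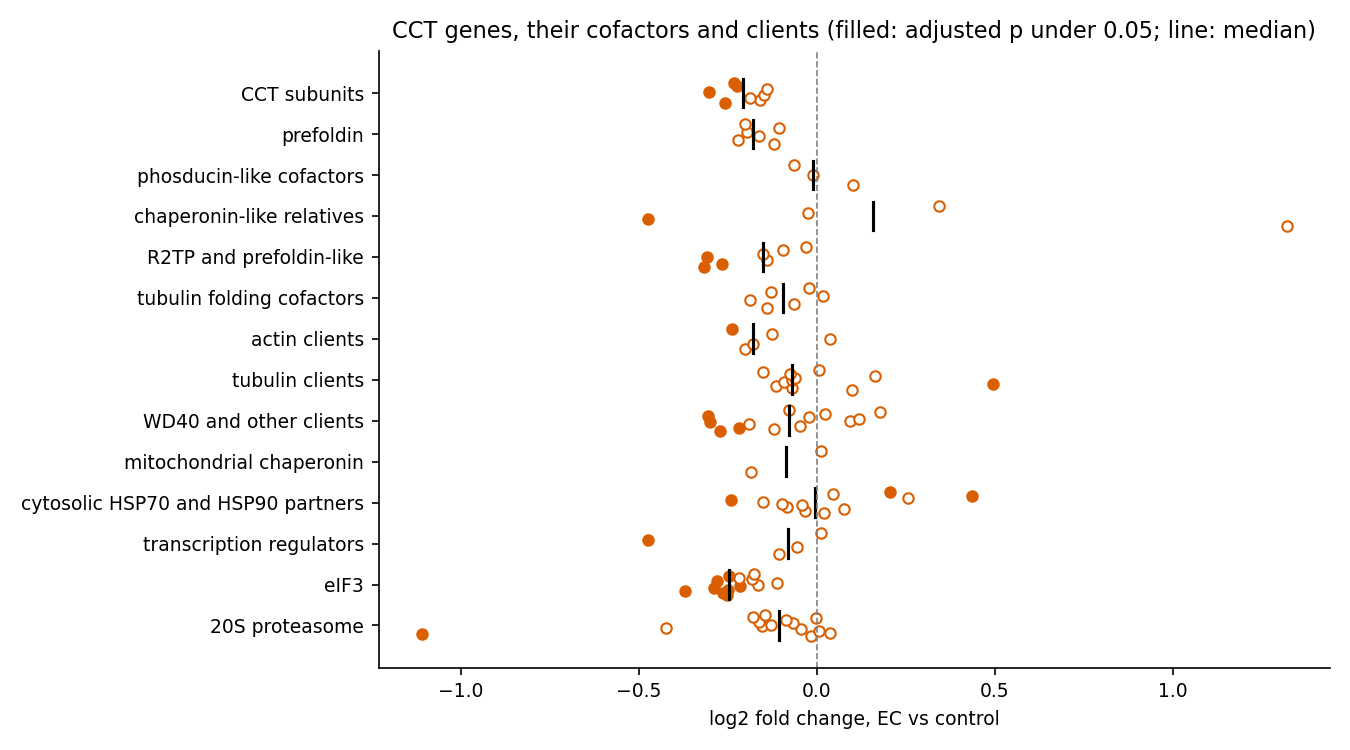
Log2 fold change in EC vs. control (horizontal axis) of the CCT genes and of each tested gene in lists of cofactors, clients, other chaperones and complexes; filled points have an adjusted p under 0.05 and vertical lines are list medians. The medians of CCT (-0.21), prefoldin (-0.18) and eIF3 (-0.25) lie below 0, and that of the HSP70 and HSP90 list lies at -0.0064.

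The genes whose pattern was most like that of the family were found by the Pearson correlation with the mean log2 CPM of the 8 CCT genes over the 9 libraries, after subtracting batch means, among 9680 other genes with a mean of at least 10 CPM. The closest 10 were RPP30, MAEA, RACK1, MAZ, SNHG3, MMS19, CACYBP, EVA1A, ATP5F1B and DNAJA2, with r from 0.985 to 0.999. Of the 9680 genes, 965 (9.97%) had r above 0.8, so such likeness was common among libraries that share the same 3 conditions. With the batch means left in, the r of these 10 genes ranged from 0.475 for EVA1A to 0.984 for MAEA. The list held a ribosome-bound scaffold (RACK1), the beta subunit of the mitochondrial ATP synthase (ATP5F1B) and an HSP40 cochaperone (DNAJA2). Because the 10 genes were chosen by likeness in the same libraries, LFC values below 0 in EC largely follow from the choice. They ranged from -0.53 for SNHG3 to -0.14 for RPP30. For RACK1, ATP5F1B and DNAJA2 they were -0.30, -0.24 and -0.17, of which the last did not pass the threshold (adjusted p = 0.00574, 0.0261 and 0.108 in edgeR).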

How the data were processed

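RNA of 9 BEAS-2B samples was sequenced after poly-A selection, and a table of raw counts for 63187 Ensembl genes in 9 columns was deposited by the authors. Per the study's methods, reads were trimmed with fastp, aligned with STAR to GRCh38.p12 and counted on exons with featureCounts (Subread 2.0.4), ignoring multi-mapping and multi-overlapping reads, while the strand setting is not given in the sources used here. The 16030 genes that reached 10 counts in 3 or more libraries were tested with edgeR 4.0.16 (R 4.3.3), using TMM factors, robust dispersions and a quasi-likelihood fit of all 9 libraries with condition and batch as terms. Adjusted p values are Benjamini-Hochberg values over all genes tested, with a threshold of 0.05. The SE was derived from the LFC and its F statistic, and it covers the spread between these 9 libraries. Libraries with the same number, which the labels give as the batch, correlated in their deviations from the condition mean at 0.315 to 0.693 in 9 pairs, and those with different numbers at -0.52 to 0.406. No replicates were duplicates (chi-square per gene at least 3.88). Gene coordinates and lengths are from GENCODE release 44 (GRCh38), which holds 62666 of the identifiers, and promoters are from RefSeq on GRCh38.p14. Log2 CPM used a prior count of 1. The members and lists were chosen with earlier results of these data known. All 8 members, every list gene past the threshold in either treatment and the 10 genes most like the family are named, with values for at most 4 genes a list by adjusted p in EC vs. control. ACAT2 and the lncRNA were added after their values were seen, as genes that overlap a member. DESeq2 1.42.0, alone and after ComBat-Seq of sva 3.50.0, was an alternative. The steps were tested on simulated counts.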

Additional observations from a re-analysis of the deposited data

How the results depend on the processing

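Under every alternative run, all 8 CCT genes kept a fitted LFC below 0 for EC and for PG/VG against the control. The number of DEGs among them moved. Without the replicate block it was 0 for EC and 0 for PG/VG against the control (edgeR, with 4 and 2 at an unadjusted p under 0.05), where 4 and 1 were found with the block. Of all 16030 genes tested, 16 and 1 passed without the block, against 2157 and 727 with it. With ComBat-Seq and DESeq2, 7 and 5 of the 8 were DEGs, against 3099 and 1735 of all 16100 genes tested. In PG/VG vs. control the number among the 8 was also 0 without a filter beyond 1 count (936 of all 35230 genes). It was 4 with the 2 groups fitted alone (1241 of 16030) and 2 with DESeq2 and the batch (717 of 16030). When single libraries were dropped, it ranged from 1 to 6 for EC, from 0 to 4 for PG/VG and from 1 to 3 for batch 4 vs. batches 2 and 3, and stayed at 0 in EC vs. PG/VG. Over all genes tested, these fits had 1162 to 2172 DEGs for EC and 192 to 1084 for PG/VG against the control. For batch 4 they had 4951 to 6329, and for EC vs. PG/VG 32 to 208. The SD among the 8 LFC values stayed between 0.0461 and 0.0722 for EC and between 0.0396 and 0.0538 for PG/VG against the control, and between 0.0325 and 0.0513 for EC vs. PG/VG, in these fits. The cause of these moves was not tested.

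In EC vs. PG/VG the LFC changed sign in 12 cases, and with single libraries dropped it ranged from -0.077 to 0.0056 for CCT2, -0.095 to 0.046 for CCT4, -0.056 to 0.0036 for CCT6A, -0.086 to 0.015 for CCT7 and -0.060 to 0.056 for CCT8. For CCT2 it was 0.0056 without PG/VG replicate 4. For CCT4 it was 0.046, 0.0091, 0.040 and 0.0065 without PG/VG replicates 3 and 4 and EC replicates 3 and 4. For CCT6A it was 0.0036 and 0.0013 without PG/VG and EC replicate 4. For CCT7 it was 0.0016 and 0.015 without PG/VG and EC replicate 3. For CCT8 it was -0.060 and -0.055 without PG/VG and EC replicate 2, and -0.0014 with ComBat-Seq and DESeq2. In batch 4 vs. batches 2 and 3, CCT8 changed sign without PG/VG replicates 2 (-0.010) and 4 (-0.011), with a range up to 0.074. The ratio of the highest to the lowest level per length was 3.68 with coding lengths and 2.55 with all exons, against 4.35.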
